A study of Rattus norvegicus with 9 samples.

Results

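Genes of programmed cell death and of the p53 response were compared between primary cultures of rat ventral midbrain and the embryonic tissue itself. The list held 51 genes, named for their known roles in apoptosis or as p53 targets. Of these, 46 had a probe set annotated with that symbol alone, out of 10411 genes measured in this way, and each gene is given by its brightest probe set (by mean over the 9 arrays). Bbc3, Pmaip1, Fadd and Sesn2 had no such probe set, and the probe set of Bax is shared with a second symbol, so these 5 genes were not analysed here.

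MesPC denotes primary cultures of the mesencephalon, collected after 9 days in vitro (6 arrays), and MesE11 denotes pooled ventral midbrain of embryonic day 11 (3 arrays). The labels name no strain, genotype or treatment for these rats. Embryos from 4 pregnant rats were mixed into 3 groups, each of which gave a tissue pool and cells plated in duplicate. The labels speak of 3 independent MesPC samples but 6 arrays carry the name. Read with the duplicate plating, the 6 come from no more than the 3 embryo groups that also gave the tissue. Which array belongs to which group is not given. The main fit treats all arrays as unpaired and independent, so p-values measure only the spread between arrays. All values are normalized intensities on the log2 scale. A difference is the MesPC mean minus the MesE11 mean, given ± its standard error in the limma fit (n = 6 and 3 arrays), and a gene passed when its p, adjusted over all probe sets, was under 0.05. In such bulk RNA, fewer cells of a type and less RNA per cell cannot be told apart.

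Apoptosis runs along converging routes that meet at the caspases, the proteases that dismantle the cell. In the mitochondrial route, BH3-only proteins sense damage or the loss of trophic support and set free the pore-forming effectors, which the pro-survival relatives of BCL2 hold in check. The released proteins then assemble the apoptosome with caspase 9. In the receptor route, death receptors of the TNF receptor family recruit adaptors and caspase 8. The transcription factor p53 raises genes of cell cycle arrest, repair and death after DNA damage or other stress, and many neurons of the developing midbrain are lost by apoptosis.

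The MesPC arrays numbered 1 to 3 and those numbered 4 to 6 stood apart. Over all probe sets, arrays of the same set correlated at 0.997 to 0.998 (Pearson's r) and arrays of different sets at 0.982 to 0.987. The labels name nothing that parts the sets, so these sets are described and not tested against each other. Markers of several cell types moved with the groups. The mean log2 level of 8 fibroblast markers was 10.91 to 11.04 in MesPC 1 to 3, 10.84 to 10.92 in MesPC 4 to 6 and 8.04 to 8.28 in MesE11, with 7 of 8 higher in MesPC and 1 lower. That of 8 markers of dividing cells was 10.19 to 10.32, 9.60 to 9.77 and 8.45 to 8.66 in the same order, and all 8 were higher. For 9 neuronal markers it was 10.67 to 10.89, 11.81 to 11.86 and 12.27 to 12.37, with 4 lower. For 7 dopaminergic markers it was 7.84 to 8.03, 8.51 to 8.64 and 9.44 to 9.50, with 6 lower. Astrocyte markers were at 9.93 to 10.07 in the MesPC arrays and 9.22 to 9.43 in MesE11 (4 of 7 higher). Lower in MesPC were microglial markers, at 7.23 to 7.41 against 7.70 to 7.73 (6 of 9 lower), endothelial markers, at 6.38 to 6.60 against 7.86 to 8 (3 of 4), and erythroid markers, at 6.29 to 6.79 against 10.08 to 10.50 (4 of 4). The bacterial control bioD exceeded bioB by more log2 units in MesPC than in MesE11, at 3.73 to 4.12 in MesPC and 3.33 to 3.42 in MesE11. The part of these differences in the results that follow was not tested.

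Of the 46 genes, 15 (32.6%) were higher in MesPC and 9 (19.6%) lower, 24 in all (52.2%). Over all 10411 genes, 21.9% were higher, 22.7% lower and 44.6% changed in either direction, as did 42.2% of all probe sets. The median difference was 0.079 over the 46 genes and −0.056 over all genes, and the median absolute difference was 0.227 and 0.21. Most changes were small, and only Tnfrsf1a and Gadd45a passed with a difference of 1 log2 unit or more, a size reached by 5.76% of all genes. The 6 MesPC values lay entirely above or below the 3 MesE11 values for 24 of the 46 genes (52.2%), 15 above and 9 below. The share over all genes was 44.4% (21.1% above and 23.3% below). These 24 were all genes that passed except Bcl2a1, and Bcl2, which did not pass. With MesPC 1 to 3 and MesPC 4 to 6 treated as random blocks in limma, 14 of the 24 genes that had passed still did, 9 higher and 5 lower. The 10 that did not pass with this block were Diablo, Sesn1, Phlda3, Mdm2, Gadd45b, Casp2, Endog, Casp1, Bcl2a1 and Xiap.

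**Figure D1:**
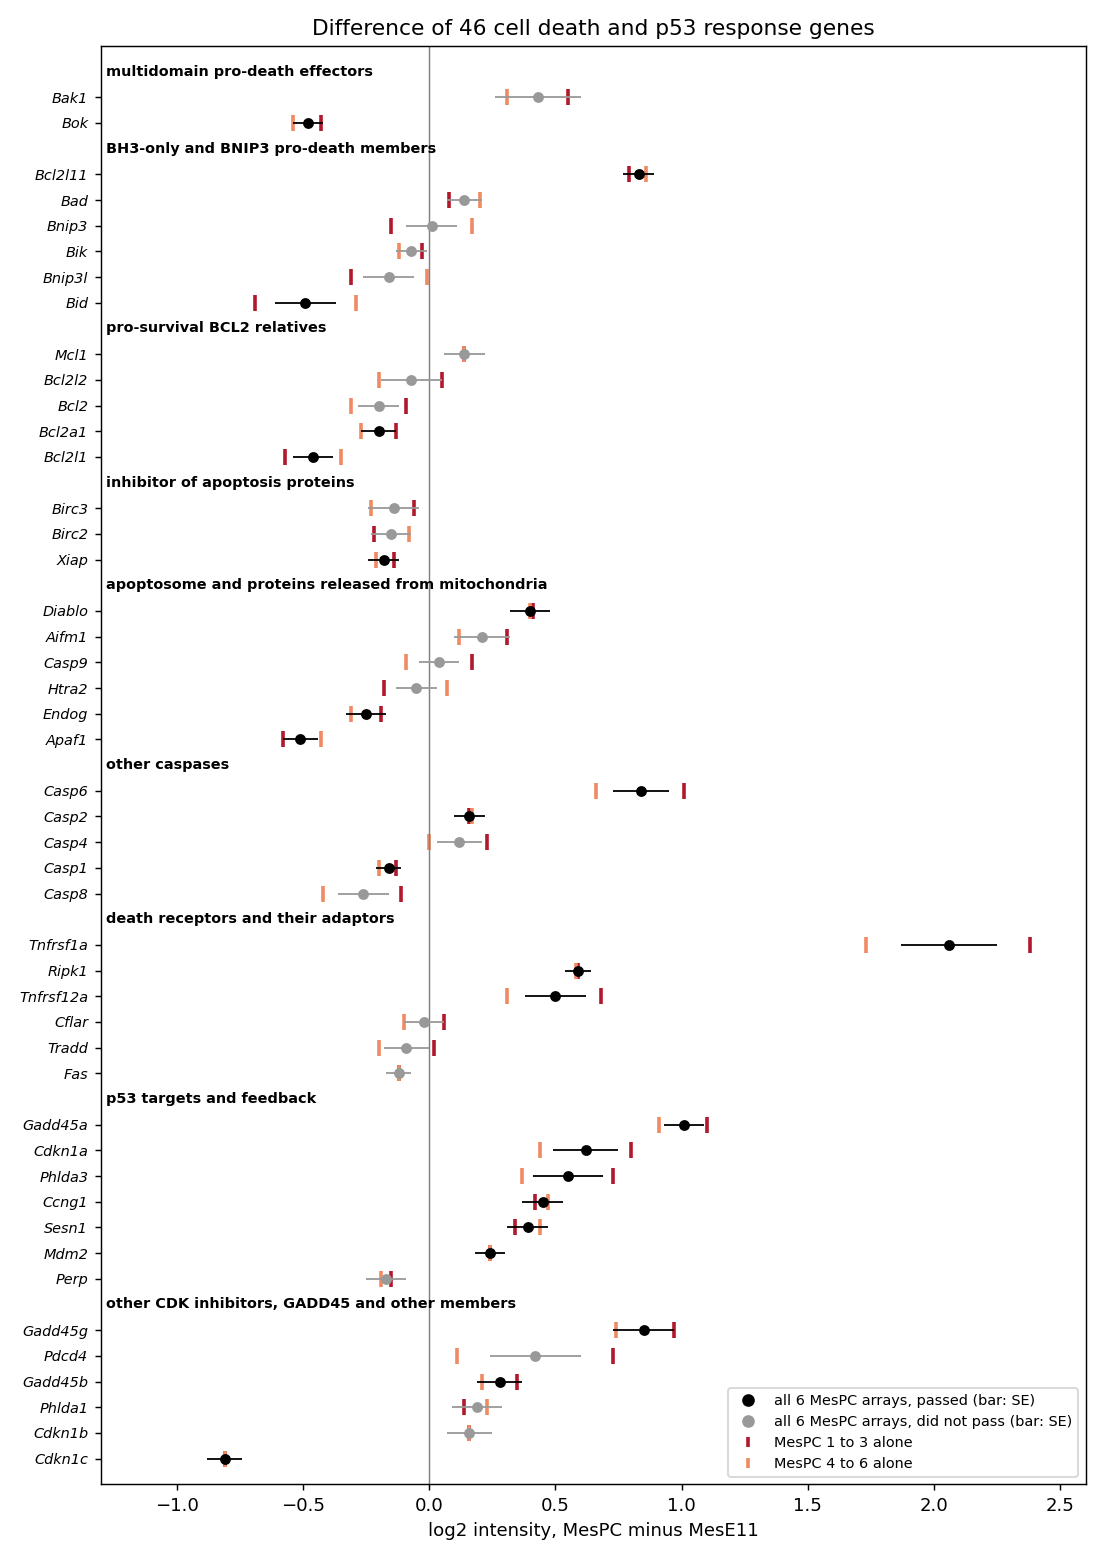
Difference in log2 intensity between MesPC and MesE11 (x axis) for the 46 measured genes, grouped by role (y axis), with points for all 6 MesPC arrays, bars for the standard error, and ticks for MesPC 1 to 3 alone and MesPC 4 to 6 alone. Tnfrsf1a lies farthest to the right at 2.06, Cdkn1c farthest to the left at −0.81, and 6 of the 7 p53 targets lie to the right of 0.

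Of the p53 targets and feedback genes, 6 of 7 measured rose and 0 fell, with a median difference of 0.45, where 21.9% of all genes rose and 22.7% fell. This count depends on how the roles were drawn. Some genes placed in other roles are known p53 targets too, among them Apaf1 and Bid, which fell, and Fas, which did not pass. With the random block 3 of the 6 genes that rose here passed, Gadd45a, Cdkn1a and Ccng1, while Sesn1, Phlda3 and Mdm2 did not (adjusted p = 0.0751, 0.0803 and 0.163). The same 6 passed with MesPC 1 to 3 alone and with MesPC 4 to 6 alone. Promoter windows of 4 of them are shown, picked because these genes rose together and hold the consensus decamer of the p53 response element. A full element repeats this decamer. Only exact matches were counted, and each window holds a single one. In Cdkn1a the bases right after the match, tgacttgttc, miss the consensus at their first base alone. The windows run from 250 bases before to 50 after a RefSeq start site in the rat assembly GRCr8, and capitals mark the decamer, whose consensus is its own reverse complement. Gadd45a lies at chr4:97486750-97487049 on the minus strand, Cdkn1a at chr20:7150682-7150981 on the plus strand, Ccng1 at chr10:25684827-25685126 on the minus strand and Sesn1 at chr20:46948469-46948768 on the plus strand.
Gadd45a: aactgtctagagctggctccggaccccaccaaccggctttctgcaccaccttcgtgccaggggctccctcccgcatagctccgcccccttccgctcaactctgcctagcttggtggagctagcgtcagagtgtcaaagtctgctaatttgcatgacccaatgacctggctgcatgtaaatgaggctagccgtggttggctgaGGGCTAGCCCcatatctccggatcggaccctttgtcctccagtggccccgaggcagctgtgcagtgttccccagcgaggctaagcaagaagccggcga
Cdkn1a: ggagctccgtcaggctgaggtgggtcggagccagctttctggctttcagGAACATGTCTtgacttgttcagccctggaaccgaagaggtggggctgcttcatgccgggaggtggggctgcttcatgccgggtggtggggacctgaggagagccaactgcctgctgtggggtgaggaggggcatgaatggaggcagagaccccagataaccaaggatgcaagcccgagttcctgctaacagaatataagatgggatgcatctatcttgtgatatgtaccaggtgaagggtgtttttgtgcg
Ccng1: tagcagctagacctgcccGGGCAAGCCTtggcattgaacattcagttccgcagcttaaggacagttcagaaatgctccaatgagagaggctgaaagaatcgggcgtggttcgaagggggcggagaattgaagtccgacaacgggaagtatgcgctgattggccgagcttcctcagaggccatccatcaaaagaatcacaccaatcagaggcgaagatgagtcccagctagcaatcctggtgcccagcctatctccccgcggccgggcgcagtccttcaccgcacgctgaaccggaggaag
Sesn1: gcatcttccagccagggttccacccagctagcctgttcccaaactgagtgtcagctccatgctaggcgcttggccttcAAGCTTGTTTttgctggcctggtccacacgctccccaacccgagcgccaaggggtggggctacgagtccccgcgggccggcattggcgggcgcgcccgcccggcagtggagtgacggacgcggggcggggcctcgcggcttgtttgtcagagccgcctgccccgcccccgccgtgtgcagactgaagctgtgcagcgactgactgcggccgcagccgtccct

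The marked decamer begins 48 bases before the start site in Gadd45a, 201 in Cdkn1a, 232 in Ccng1 and 172 in Sesn1. Counted as an exact match, it occurred once in each of these windows, in 4 of the 7 measured p53 targets in all, and in 7.98% of the 33469 windows of the rat table. The other 3 targets, Mdm2, Perp and Phlda3, have no such letters in these windows. Among the 36 of the 46 genes with a window, Cflar was the only further gene that holds the decamer. The GC box GGGCGG, searched on both strands, was in the windows of 6 of the 7 targets, all but Cdkn1a. It was in those of 27 of the 36 genes with a window, and in 33.1% of all windows. The 7 targets were listed for their known link to p53, so these shares are no test of p53 in these cultures. A match is a description of the sequence and was not tested for binding.

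Gadd45a, which encodes a stress sensor that acts in cell cycle arrest and DNA repair, read 9.38, 9.18 and 9.36 in MesPC 1 to 3 and 9.15, 9.16 and 9.02 in MesPC 4 to 6, against 8.29, 8.12 and 8.20 in MesE11. Every MesPC array lay above every MesE11 array, and the difference was 1.01 ± 0.08 (2.01-fold, adjusted p = 1.4e-05). Cdkn1a, the gene of the CDK inhibitor p21 and the best known p53 target, read 9.85, 10.05 and 9.94 in MesPC 1 to 3 and 9.60, 9.61 and 9.54 in MesPC 4 to 6, against 8.94, 9.26 and 9.23 in MesE11. Its groups did not overlap and it rose by 0.62 ± 0.13 (1.54-fold, adjusted p = 0.00351), whereas its dimmer probe set did not pass (0.19 ± 0.10, adjusted p = 0.155). Phlda3, a p53 target that restrains AKT signalling, read 8.60, 8.53 and 8.56 in MesPC 1 to 3 and 8.24, 8.24 and 8.12 in MesPC 4 to 6, against 8.11, 7.54 and 7.85 in MesE11. Its lowest MesPC value lay just above its highest MesE11 value, and the rise of 0.55 ± 0.14 (adjusted p = 0.0128) did not pass without MesE11 replicate 2 (0.40, adjusted p = 0.0609).

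Ccng1, cyclin G1, rose by 0.45 ± 0.08 (10.92 to 11.19 in MesPC, 10.47 to 10.78 in MesE11), and Sesn1, a sestrin that limits oxidative stress and mTORC1, by 0.39 ± 0.08 (9.31 to 9.63 in MesPC, 8.96 to 9.14 in MesE11). Mdm2, the ubiquitin ligase that degrades p53 and closes its feedback loop, read 9.75, 9.58 and 9.55 in MesPC 1 to 3 and 9.59, 9.57 and 9.70 in MesPC 4 to 6, against 9.32, 9.48 and 9.34 in MesE11. This rise of 0.24 ± 0.06 (adjusted p = 0.0134) was the smallest among the 6 targets that passed. Mdm2 did not pass without MesE11 replicate 1 (0.21, adjusted p = 0.0592) or 3 (0.22, adjusted p = 0.0554) or under quantile normalization (0.17, adjusted p = 0.062), and its dimmer probe set did not pass (0.20 ± 0.10). Perp, a tetraspan membrane protein, did not pass (−0.17 ± 0.08, adjusted p = 0.0979), though the mean of its probe sets did (−0.14, adjusted p = 0.0374). With the random block, adjusted p was 2.4e-04 for Gadd45a, 0.0216 for Cdkn1a and 0.0431 for Ccng1.

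**Figure D2:**
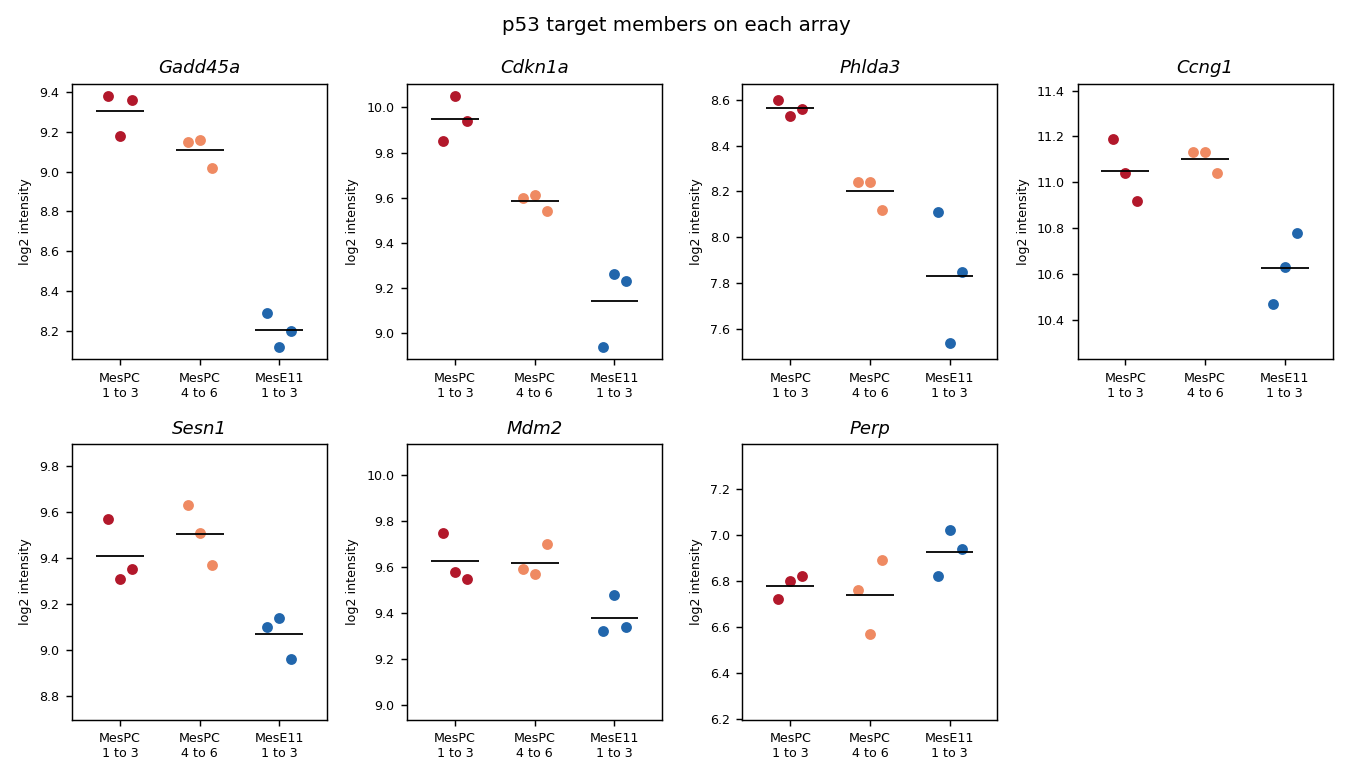
Log2 intensity (y axis) of the 7 measured p53 targets on each array, with MesPC 1 to 3, MesPC 4 to 6 and MesE11 1 to 3 along the x axis; points are arrays and lines are means of 3 arrays. All 6 MesPC points lie above the MesE11 points for every gene shown but Perp.

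Of other genes of the p53 pathway, from a list of 30 with 15 measured, 1 was higher in MesPC and 5 were lower (median difference −0.17), where 21.9% of all genes were higher and 22.7% lower. This list also holds p53-induced genes, so it is not a list of non-targets. The difference between it and the targets above was not tested. Ei24, a p53-induced protein of the endoplasmic reticulum, rose by 0.46 ± 0.09. Plk2, a polo-like kinase, changed by −1.07 ± 0.25, Ccng2, cyclin G2, by −1.05 ± 0.14 and Rprm, the arrest gene Reprimo, by −0.85 ± 0.28. Plk2 read 9.31 to 9.59 in MesPC 1 to 3 and 10.31 to 10.38 in MesPC 4 to 6, against 10.94 to 11.03 in MesE11, and Rprm 9.37 to 9.90, 10.57 to 10.66 and 10.87 to 11.06. Neither gene's groups overlapped, and in both MesPC 1 to 3 were the farther from tissue, as they were for the neuronal markers.

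Among the death receptors and their adaptors, 3 of 6 measured genes rose and 0 fell (median difference 0.24). Over all genes 21.9% rose and 22.7% fell. All 3 receptor route genes that rose passed with the random block as well. Tnfrsf1a, TNF receptor 1, had the largest change of all 46 genes. It read 10.49, 10.51 and 10.41 in MesPC 1 to 3 and 9.85, 9.91 and 9.70 in MesPC 4 to 6, against 8.03, 8.17 and 8.07 in MesE11. The lowest MesPC array lay far above the highest MesE11 array, and the rise was 2.06 ± 0.19 (4.17-fold, adjusted p = 2.6e-05), or 2.38 with MesPC 1 to 3 alone and 1.73 with MesPC 4 to 6 alone. Tnfrsf1a is expressed by many cell types, fibroblasts among them, and its rise ran beside that of the fibroblast markers; their part in it was not tested.

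Ripk1, the kinase that joins TNF receptor 1 to survival or death signalling, read 7.76, 7.80 and 7.78 in MesPC 1 to 3 and 7.78, 7.75 and 7.76 in MesPC 4 to 6, against 7.11, 7.25 and 7.19 in MesE11. The 6 MesPC arrays were nearly alike and above all tissue arrays (0.59 ± 0.05, adjusted p = 1.2e-05). Tnfrsf12a, the receptor of the cytokine TWEAK, read 7.39, 7.56 and 7.41 in MesPC 1 to 3 and 7.01, 7.14 and 7.10 in MesPC 4 to 6, against 6.73, 6.82 and 6.75 in MesE11 (0.50 ± 0.12, adjusted p = 0.00754). Its 3 sets of arrays did not overlap, with MesPC 4 to 6 between the others. Fas, the receptor of FAS ligand, read 6.13, 6.16 and 6.16 in MesPC 1 to 3 and 6.16, 6.16 and 6.13 in MesPC 4 to 6, against 6.16, 6.29 and 6.36 in MesE11, all below the highest reading of the bacterial control probe sets (6.68), and it did not pass (−0.12 ± 0.05, adjusted p = 0.0973). It did pass without MesE11 replicate 1 (−0.17, adjusted p = 0.0363) and with centring on array medians (−0.15, adjusted p = 0.0422). Tradd, an adaptor of TNF receptor 1 (−0.09 ± 0.09), and Cflar, which encodes the caspase 8 inhibitor c-FLIP (−0.02 ± 0.08), did not pass.

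**Figure D3:**
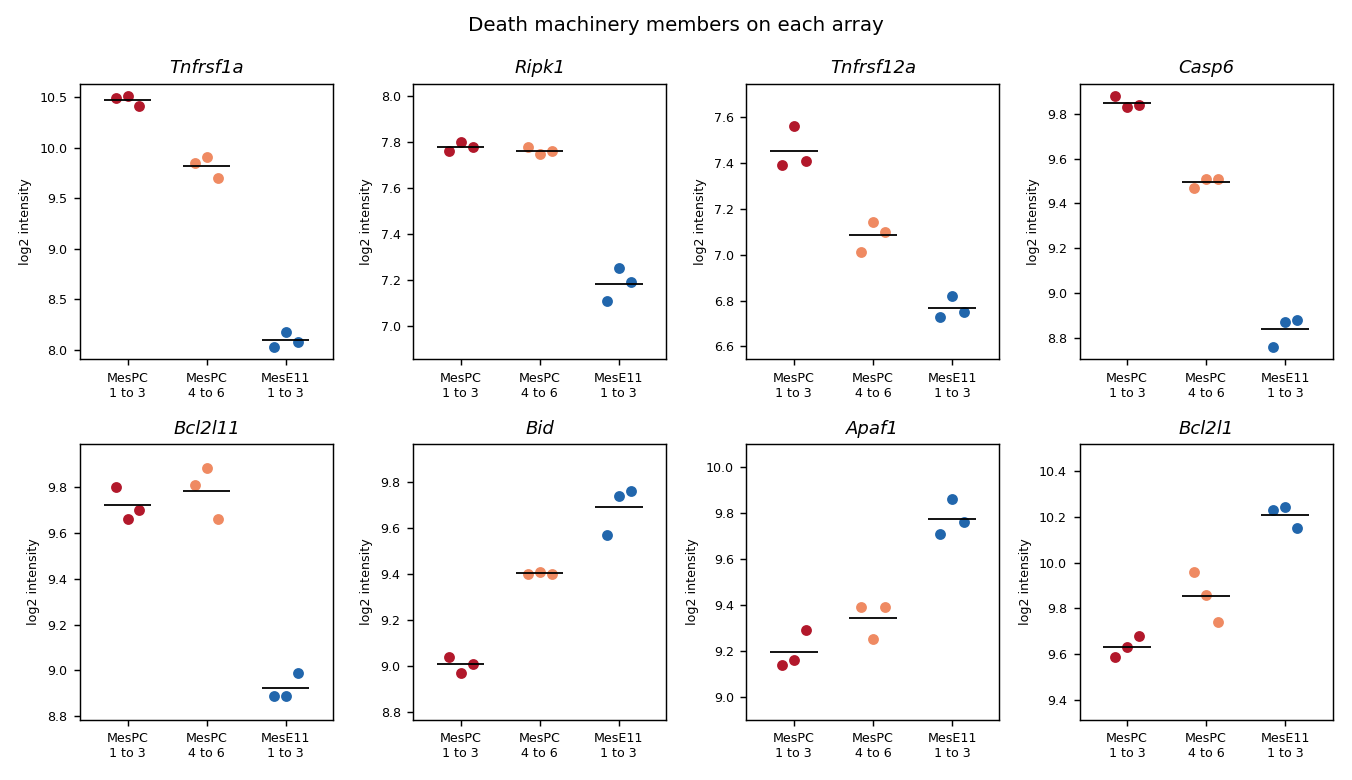
Log2 intensity (y axis) of 8 genes of the receptor and mitochondrial routes on each array, with MesPC 1 to 3, MesPC 4 to 6 and MesE11 1 to 3 along the x axis; points are arrays and lines are means of 3 arrays. Tnfrsf1a, Ripk1, Tnfrsf12a, Casp6 and Bcl2l11 lie higher in all 6 MesPC arrays than in MesE11, and Bid, Apaf1 and Bcl2l1 lie lower.

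The pro-death members of the BCL2 family changed in both directions. Of 8 measured, counting effectors and BH3-only or BNIP3 genes together, Bcl2l11 rose, Bok and Bid fell and 5 did not pass. Over all genes 21.9% rose and 22.7% fell. Bcl2l11, which encodes BIM, the BH3-only protein induced in neurons deprived of trophic factor, read 9.80, 9.66 and 9.70 in MesPC 1 to 3 and 9.81, 9.88 and 9.66 in MesPC 4 to 6, against 8.89, 8.89 and 8.99 in MesE11. Its groups stood well apart (0.83 ± 0.06, 1.77-fold, adjusted p = 8.3e-06), but its 2 dimmer probe sets did not pass (−0.04 ± 0.07 and 0.03 ± 0.05), and the mean of its probe sets rose by only 0.27. Bid, the BH3-only protein that caspase 8 cleaves and that links the receptor route to mitochondria, read 9.04, 8.97 and 9.01 in MesPC 1 to 3 and 9.40, 9.41 and 9.40 in MesPC 4 to 6, against 9.57, 9.74 and 9.76 in MesE11. All MesPC arrays lay below tissue, MesPC 1 to 3 the lowest, and both probe sets of Bid fell (−0.49 ± 0.12, adjusted p = 0.0102, and −0.29 ± 0.09, adjusted p = 0.0208).

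Bok, an effector of the BAX type, read 10.36, 10.38 and 10.35 in MesPC 1 to 3 and 10.22, 10.27 and 10.26 in MesPC 4 to 6, against 10.75, 10.91 and 10.70 in MesE11. It fell by 0.48 on the log2 scale (−0.48 ± 0.06, adjusted p = 2.5e-04), with no overlap, and its dimmer probe set fell as well (−0.31 ± 0.10, adjusted p = 0.0313). Bak1, the other effector measured, read 7.97, 8.76 and 8.78 in MesPC 1 to 3 and 8.40, 8.20 and 8.20 in MesPC 4 to 6, against 7.98, 8.03 and 7.87 in MesE11. Only MesPC replicate 1 lay in the tissue range, and the difference of 0.43 ± 0.17 did not pass (adjusted p = 0.067). It did pass without that array (0.51, adjusted p = 0.0267), with MesPC 1 to 3 alone (0.55, adjusted p = 0.0317) and with MesPC 4 to 6 alone (0.31, adjusted p = 0.00879). Bnip3, a mitophagy receptor induced by low oxygen, read 10.40, 10.38 and 10.21 in MesPC 1 to 3 and 10.61, 10.66 and 10.68 in MesPC 4 to 6, against 10.43, 10.49 and 10.53 in MesE11. MesE11 thus lay between the MesPC sets, and the overall difference was 0.01 ± 0.10. Its relative Bnip3l did not pass on its brighter probe set (−0.16 ± 0.10) and fell on the other (−0.36 ± 0.12, adjusted p = 0.0312). Bad, whose product binds BCL-XL (0.14 ± 0.07), and Bik (−0.07 ± 0.06), which was within the range of the bacterial controls, did not pass.

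Of the 5 pro-survival relatives of BCL2, 2 fell and 0 rose (median difference −0.20), where 22.7% of all genes fell. Of these 2, Bcl2l1 passed with the random block and Bcl2a1 did not (adjusted p = 0.212). Bcl2l1, which encodes BCL-XL, the main survival protein of maturing neurons, read 9.59, 9.63 and 9.68 in MesPC 1 to 3 and 9.96, 9.86 and 9.74 in MesPC 4 to 6, against 10.23, 10.24 and 10.15 in MesE11. The groups did not overlap, and its brightest probe set fell (−0.46 ± 0.08, adjusted p = 0.00194), as did a further probe set (−0.55 ± 0.09, adjusted p = 0.00136) while the dimmest did not pass (−0.15 ± 0.07). Bcl2 itself read 7.28, 7.28 and 7.38 in MesPC 1 to 3 and 7.04, 7.05 and 7.20 in MesPC 4 to 6, against 7.40, 7.39 and 7.42 in MesE11. It was the 1 gene whose groups did not overlap without passing (−0.20 ± 0.08, adjusted p = 0.0701), and it passed without MesPC replicate 3 (−0.23, adjusted p = 0.0362), with centring on array medians (−0.23, adjusted p = 0.0491) and with MesPC 4 to 6 alone (−0.31, adjusted p = 0.00459).

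Mcl1, a short-lived survival protein needed by neural progenitors in mice, read 10.61, 10.64 and 10.57 in MesPC 1 to 3 and 10.60, 10.50 and 10.73 in MesPC 4 to 6, against 10.26, 10.60 and 10.54 in MesE11. These values overlapped (0.14 ± 0.08, adjusted p = 0.183), and the dimmer probe set did not pass (0.17 ± 0.14). Bcl2a1, a survival gene expressed mainly in blood cells, read 6.94, 7.05 and 6.97 in MesPC 1 to 3 and 6.84, 6.80 and 6.90 in MesPC 4 to 6, against 7.17, 7.01 and 7.17 in MesE11 (−0.20 ± 0.07, adjusted p = 0.0372). The microglial markers were lower in the same arrays, and their part in this fall was not tested. Bcl2a1 did not pass under quantile normalization (−0.08, adjusted p = 0.211), nor when any 1 of MesPC replicates 1, 4, 5 and 6 was left out (adjusted p of 0.056 to 0.0603), nor without MesE11 replicate 1 or 3 (adjusted p = 0.125 and 0.128). Bcl2l2, which encodes BCL-W, read 6.56, 6.59 and 6.60 in MesPC 1 to 3 and 6.06, 6.37 and 6.54 in MesPC 4 to 6, against 6.37, 6.56 and 6.65 in MesE11. All of these lay below the highest bacterial control, and the gene did not pass (−0.07 ± 0.12).

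Of the 3 inhibitor of apoptosis genes, whose products block caspases or their activation, 1 fell and 0 rose. Over all genes 22.7% fell and 21.9% rose. Xiap, the direct caspase inhibitor, read 6.16, 6.11 and 6.01 in MesPC 1 to 3 and 6.01, 5.93 and 6.15 in MesPC 4 to 6, against 6.21, 6.25 and 6.25 in MesE11. It passed narrowly (−0.18 ± 0.06, adjusted p = 0.0457) at a level within the range of the bacterial controls. Xiap did not pass under quantile normalization (−0.07, adjusted p = 0.361) or without any 1 of MesE11 replicates 1 to 3 (adjusted p from 0.0823 to 0.123) or of MesPC replicates 2 to 5 (adjusted p from 0.0541 to 0.0802). Birc2 (−0.15 ± 0.08) and Birc3 (−0.14 ± 0.10), the ubiquitin ligases cIAP1 and cIAP2 of TNF receptor signalling, did not pass with all arrays. Birc2 did pass under quantile normalization (−0.21, adjusted p = 0.0497) and with MesPC 1 to 3 alone (−0.22, adjusted p = 0.0355), and Birc3 with MesPC 4 to 6 alone (−0.23, adjusted p = 0.0471).

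At the apoptosome, Apaf1 fell while its partner Casp9 did not pass. Apaf1, the scaffold that cytochrome c opens, read 9.14, 9.16 and 9.29 in MesPC 1 to 3 and 9.39, 9.25 and 9.39 in MesPC 4 to 6, against 9.71, 9.86 and 9.76 in MesE11. The groups did not overlap (−0.51 ± 0.07, 1.42-fold lower, adjusted p = 4.6e-04), and the dimmer probe set did not pass (−0.20 ± 0.11). Casp9, the initiator caspase of this complex, read 9.34, 9.26 and 9.28 in MesPC 1 to 3 and 9.02, 9.01 and 9.08 in MesPC 4 to 6, against 9.11, 9.14 and 9.12 in MesE11. As for Bnip3, tissue lay between the MesPC sets, here with MesPC 1 to 3 the higher (0.04 ± 0.08 overall), and its 2 dimmer probe sets did not pass either (0.04 ± 0.08 and −0.08 ± 0.13).

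Of the proteins that leave mitochondria, Diablo, which relieves caspases of their inhibitors, rose. It read 11.07, 10.93 and 11.03 in MesPC 1 to 3 and 11.15, 10.93 and 10.93 in MesPC 4 to 6, against 10.47, 10.75 and 10.60 in MesE11 (0.40 ± 0.08, adjusted p = 0.00239). Every MesPC array was higher than every MesE11 array, and with the random block the adjusted p was 0.0559. Endog, a mitochondrial nuclease, read 6.65, 6.65 and 6.58 in MesPC 1 to 3 and 6.47, 6.65 and 6.39 in MesPC 4 to 6, against 6.81, 6.91 and 6.72 in MesE11 (−0.25 ± 0.08, adjusted p = 0.0229). Its MesPC mean was within the range of the bacterial controls, and it did not pass without MesE11 replicate 1 or 2 (adjusted p = 0.0644 and 0.0908) or under quantile normalization (−0.14, adjusted p = 0.186). Htra2, a mitochondrial serine protease, read 10.13, 10.03 and 10.03 in MesPC 1 to 3 and 10.33, 10.32 and 10.29 in MesPC 4 to 6, against 10.24, 10.21 and 10.29 in MesE11, and did not pass (−0.05 ± 0.08). Aifm1, the flavoprotein AIF, did not pass either (0.21 ± 0.11).

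Casp6 had the largest change among the other caspases. This executioner caspase, which cleaves lamins and acts in axon degeneration, read 9.88, 9.83 and 9.84 in MesPC 1 to 3 and 9.47, 9.51 and 9.51 in MesPC 4 to 6, against 8.76, 8.87 and 8.88 in MesE11. The 3 sets of arrays did not overlap, with MesPC 4 to 6 in the middle, and the rise was 0.84 ± 0.11 (1.79-fold, adjusted p = 2.3e-04). Casp2, which acts in stress-induced death, read 10.53, 10.65 and 10.53 in MesPC 1 to 3 and 10.65, 10.54 and 10.55 in MesPC 4 to 6, against 10.34, 10.48 and 10.41 in MesE11 (0.16 ± 0.06, adjusted p = 0.0408). It lost its call without any 1 array other than MesE11 replicate 2 (adjusted p from 0.0507 to 0.154), under quantile normalization (0.11, adjusted p = 0.148), with centring on array medians (0.13, adjusted p = 0.0981) and with a trended robust variance prior (adjusted p = 0.0612), and its dimmer probe set did not pass (0.32 ± 0.12, adjusted p = 0.059). Casp1, the caspase of inflammasomes, read 6.52, 6.45 and 6.53 in MesPC 1 to 3 and 6.42, 6.47 and 6.40 in MesPC 4 to 6, against 6.64, 6.61 and 6.64 in MesE11 (−0.16 ± 0.05, adjusted p = 0.0243).

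All Casp1 values were below the highest bacterial control, and it did not pass without MesE11 replicate 1 or 3 (adjusted p = 0.0729 and 0.0694) or under quantile normalization (−0.04, adjusted p = 0.507). Casp8, the initiator of the receptor route, read 7.24, 7.27 and 7.35 in MesPC 1 to 3 and 6.99, 7.01 and 6.95 in MesPC 4 to 6, against 7.51, 7.29 and 7.40 in MesE11. MesPC 4 to 6 lay below all other arrays, and the overall difference did not pass (−0.26 ± 0.10, adjusted p = 0.0582) though it did without MesPC replicate 2 (−0.29, adjusted p = 0.0485) or 3 (−0.31, adjusted p = 0.0319) and with centring on array medians (−0.30, adjusted p = 0.0408). Casp4, another inflammatory caspase, did not pass (0.12 ± 0.09).

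The GADD45 paralogs of Gadd45a rose with it. Gadd45g, a growth arrest gene of neuronal differentiation, read 9.72, 9.32 and 9.31 in MesPC 1 to 3 and 9.35, 9.16 and 9.15 in MesPC 4 to 6, against 8.56, 8.51 and 8.37 in MesE11. Its groups did not overlap (0.85 ± 0.12, 1.81-fold, adjusted p = 3.2e-04). Gadd45b, induced by stress and cytokines, read 7.68, 7.73 and 7.59 in MesPC 1 to 3 and 7.52, 7.57 and 7.48 in MesPC 4 to 6, against 7.10, 7.41 and 7.43 in MesE11 (0.28 ± 0.09, adjusted p = 0.0249), and without MesE11 replicate 1 it did not pass (0.18, adjusted p = 0.108). Cdkn1c, the gene of the CDK inhibitor p57, which accompanies cell cycle exit of neuronal precursors, read 11.32, 11.24 and 11.31 in MesPC 1 to 3 and 11.38, 11.27 and 11.24 in MesPC 4 to 6, against 12.12, 12.25 and 11.94 in MesE11. The fall was the largest among the 46 genes (−0.81 ± 0.07, 1.75-fold lower, adjusted p = 1.8e-05), alike in both MesPC sets (−0.81 with either alone), and ran beside the higher markers of dividing cells, whose part in it was not tested.

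Cdkn1b, the gene of p27, did not pass on its brighter probe set (0.16 ± 0.09) and rose on the dimmer one (0.43 ± 0.15, adjusted p = 0.0387) and in the mean of both (0.29, adjusted p = 0.0155). Pdcd4, an inhibitor of translation, read 10.04, 10.20 and 10.17 in MesPC 1 to 3 and 9.63, 9.55 and 9.37 in MesPC 4 to 6, against 9.36, 9.48 and 9.38 in MesE11. MesPC 1 to 3 stood above all other arrays, MesPC 4 to 6 overlapped with tissue, and the overall difference did not pass (0.42 ± 0.18, adjusted p = 0.0853) but did without MesPC replicate 6 (0.51, adjusted p = 0.0284). Phlda1, a relative of Phlda3, was within the range of the bacterial controls and did not pass (0.19 ± 0.10), though it did without MesPC replicate 1 (0.25, adjusted p = 0.0415).

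Between the MesPC sets, 23 of the 46 genes (50%) had values that did not overlap, against 48.4% of all genes. MesPC 1 to 3 were the higher in 17 (37.0%, against 26% of all genes) and the lower in 6 (13.0%, against 22.4%). The median difference, MesPC 1 to 3 minus MesPC 4 to 6, was 0.08 over the 46 genes and 0.033 over all genes, and the median absolute difference 0.157 and 0.142. By role, the sets parted without overlap in 3 of 6 receptor route genes, 3 of 7 p53 targets, 3 of 5 other caspases, 4 of 5 pro-survival relatives and 4 of 6 BH3-only or BNIP3 genes. They also parted in 3 of 6 apoptosome and mitochondrial genes, 1 of 2 effectors, 2 of 6 other genes (the GADD45 paralogs, CDK inhibitors, Pdcd4 and Phlda1) and 0 of 3 inhibitor of apoptosis genes. Where they parted, MesPC 1 to 3 were the higher in all receptor route genes, p53 targets, other caspases, effectors and other genes, in 3 of the 4 pro-survival relatives and in 2 of the 3 apoptosome and mitochondrial genes. They were the lower in all 4 BH3-only or BNIP3 genes, Bad, Bid, Bnip3 and Bnip3l.

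The widest gaps were those of Tnfrsf1a (0.65), Pdcd4 (0.61), Bid (−0.40), Tnfrsf12a (0.37), Cdkn1a and Phlda3 (0.36 each) and Casp6 (0.35). For Tnfrsf1a, Tnfrsf12a, Cdkn1a, Phlda3, Casp6, Gadd45a and Gadd45b, the MesPC 4 to 6 arrays lay between MesPC 1 to 3 and tissue. MesPC 4 to 6 also correlated more closely with tissue over all probe sets, so this order is not particular to these genes. Its share over all genes was not counted. Other genes that rose showed no such gap: the set means of Ripk1, Mdm2 and Diablo differed by 0.01 and that of Bcl2l11 by −0.06. Set against MesE11 alone, MesPC 1 to 3 gave 18 higher and 9 lower genes among the 46 (25.7% and 27% of all genes, 52.7% in all) and MesPC 4 to 6 gave 15 and 12 (22.9% and 27.2%, 50.1% in all). These comparisons share the 3 tissue arrays. Of the 24 genes that passed with all arrays, 19 passed in the same direction with either set alone, and 0 of the 46 passed in opposite directions. Of the 22 that did not pass with all arrays, 7 passed with MesPC 1 to 3 alone (Bak1, Bnip3l, Birc2, Casp9, Htra2, Casp4 and Pdcd4) and 5 with MesPC 4 to 6 alone (Bak1, Bad, Bcl2, Birc3 and Casp8).

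**Figure D4:**
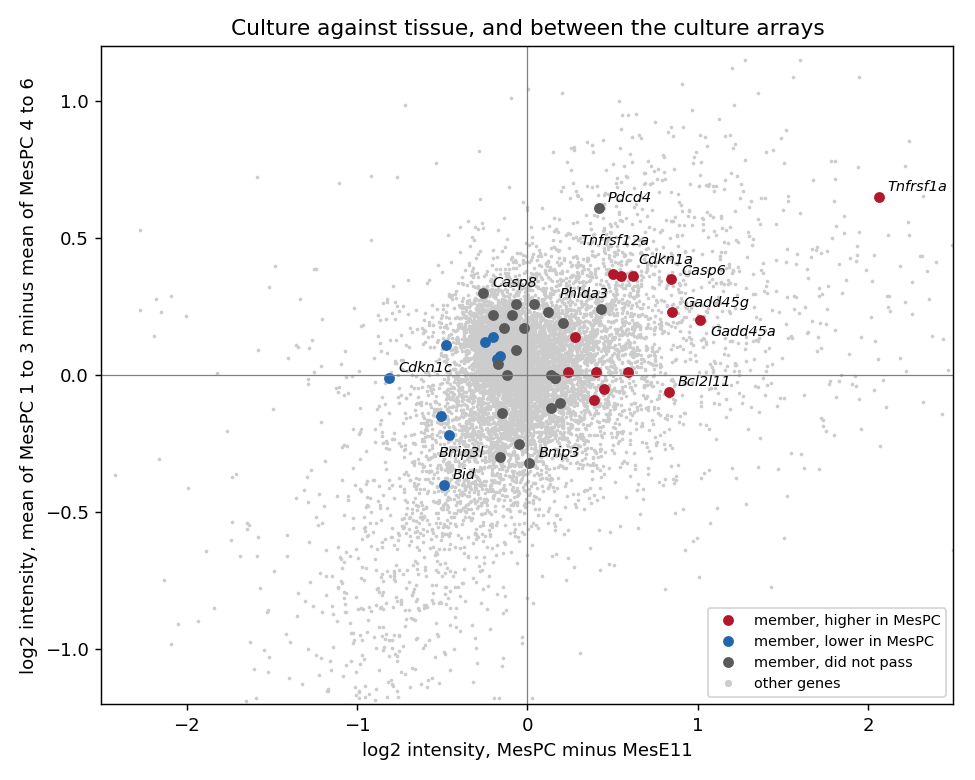
Mean log2 intensity of MesPC 1 to 3 minus that of MesPC 4 to 6 (y axis) against the difference MesPC minus MesE11 (x axis), with the 46 genes as large points coloured by call and all other genes as grey points; 129 genes lie beyond the axes. Tnfrsf1a and Pdcd4 lie highest among the 46 and Bid lowest, while Cdkn1c and Bcl2l11 lie close to 0 on the y axis.

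A further list of 36 cell death genes, of which 25 were measured, had 6 higher and 8 lower in MesPC (median difference −0.09), where 21.9% of all genes were higher and 22.7% lower. Ngfr, the neurotrophin receptor p75, which can signal death or survival and is also found on mesenchymal and glial cells, read 8.78 to 8.87 in MesPC 1 to 3 and 8.83 to 9.26 in MesPC 4 to 6, against 6.73 to 7.01 in MesE11, a rise of 2.07 ± 0.12. Bcl10, an adaptor of NF-kappaB signalling, rose by 0.76 ± 0.09 and Bag3, a stress-induced co-chaperone, by 0.70 ± 0.14. Dapk1, a calcium-dependent death kinase, changed by −0.79 ± 0.21, Bag1, a co-chaperone that binds BCL2, by −0.50 ± 0.09 and Dapk3 by −0.42 ± 0.11. Dapk1 read 9.28 to 9.38 in MesPC 1 to 3 and 10.02 to 10.19 in MesPC 4 to 6, against 10.42 to 10.56 in MesE11, so that, as for Plk2 and Rprm, MesPC 1 to 3 were the farther from tissue.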

How the data were processed

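RNA of 9 samples was hybridized to Affymetrix rat arrays. The authors deposited log2 intensities made with RMA, as the submitters' processing notes name it without a version. RMA subtracts background, brings the probe values of all arrays to a common distribution and condenses probes into probe sets. Differences are thus relative to the rest of the array. The deposited probe set values still differed at the dim end. Their lower quartile was 6.98 to 7.11 in the MesPC arrays and 7.15 to 7.21 in the MesE11 arrays. Under quantile normalization 6 of the 46 genes were lower, against 9 in the main fit. Bcl2a1, Xiap, Casp1 and Endog, at −0.08, −0.07, −0.04 and −0.14, no longer passed there. The part of the dim end in the small falls of dim genes was not tested further. Of 15923 probe sets, 57 controls were left out. Symbols came from the array annotation, and the Entrez numbers of all 46 genes were found in the RefSeq table of GRCr8, with 0 symbols changed. limma 3.58.1 in R 4.3.3 (lmFit, eBayes) compared MesPC with MesE11, with two-sided p-values adjusted by the Benjamini-Hochberg method over 15866 probe sets. The fit was tested on simulated data with independent noise and no gap between the MesPC sets. That test therefore says nothing of calls where the sets part. Precision is limited by how few arrays there are. The 27 bacterial control probe sets, at 4.80 to 6.68, served as a mark of background.

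Values on every array are given for Cdkn1a, Mdm2, Bcl2, Bcl2l1, Mcl1, Casp9 and Fas, for the 3 genes of each role with the largest differences that passed, and for the 2 of each role with the largest gap between MesPC sets that did not overlap. Of the other pathway lists, the 3 largest rises and falls that passed are named. Bak1 was added after its values were seen. The genes, lists, roles and MesPC sets were chosen with earlier results of these data known. The alternatives were quantile normalization, centring on array medians, leaving out the dimmest 40% of probe sets, a trended robust variance prior, a random block for the MesPC sets (duplicateCorrelation), either set alone, replicate numbers as a block, averaging the probe sets of each gene, and leaving out each array. Plots used matplotlib 3.10.9.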

Additional observations from a re-analysis of the deposited data

Results flagged for a closer look

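Among the 6 MesPC arrays, the value of Gadd45g in MesPC replicate 1, 9.72, stood apart from the others, which lay between 9.15 and 9.35; by the limit used, chance sets an array apart in about 1 in 20 groups, and 46 genes were looked at. Gadd45g passed without that array as well.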

How the results depend on the processing

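The MesPC sets mattered most: with them as a random block (correlation within blocks 0.447), 14 of the 46 genes and 3227 of all probe sets passed, against 24 and 6693 without it. Under the other alternatives the count of the 46 lay between 17 and 27. The 17 came without the dimmest 40% of probe sets, which left only 30 of the 46 to test. The count was 18 to 24 when 1 array was left out (4725 to 6557 probe sets). Of the 24 genes, 14 passed under all 18 alternatives that gave them a value. Of the values of single genes under the alternatives, 700 kept their direction and their side of the threshold, 58 no longer passed, 30 newly passed and 24 changed sign. The sign changes all concerned genes that did not pass. With quantile normalization, Bik was at 0.0034, Bnip3 at −0.03, Bcl2l2 at 0.04, Casp9 at −0.03 and Tradd at 0.02. Centring put Bnip3 at −0.03. With MesPC 1 to 3 alone, Bnip3 was at −0.15, Bcl2l2 at 0.05, Tradd at 0.02 and Cflar at 0.06, and with MesPC 4 to 6 alone Casp9 was at −0.09 and Htra2 at 0.07. When 1 array was left out, Bnip3 lay between −0.03 and 0.06, Bcl2l2 between −0.15 and 0.0029 and Cflar between −0.09 and 0.03. The cause was not tested. With the replicate number as a block, which keeps only MesPC 1 to 3, 24 of the 46 genes passed (19 of them shared) and 7521 probe sets, with Bnip3 at −0.15, Bcl2l2 at 0.05, Tradd at 0.02 and Cflar at 0.06. Deviations of same-numbered MesPC and MesE11 arrays from their group means correlated at 0.017, 0.007 and −0.086. Those of other pairs of MesPC 1 to 3 and MesE11 lay between −0.106 and 0.1. The MesPC deviations were taken from the mean of all 6 MesPC arrays, so they also hold the gap between the sets. This check therefore cannot settle whether arrays were paired, and MesPC 4 to 6 were not part of it. Signals within the range of the bacterial controls, in both groups for Bik, Bcl2l2, Xiap, Casp1, Fas and Phlda1, limit what could be detected for these genes.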
